A study of Mus musculus with 11 samples.

Results

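Collagens, laminins and the other genes of the basement membrane were followed across the cell types of the mouse brain after stroke, in wild-type mice and in mice without Lrg1. Members were taken by name from the feature list that the libraries share. A gene was included when its symbol began with Col and a number and then held an a, or began with Lama, Lamb or Lamc and a number, and Fn1, Nid1, Nid2, Hspg2, Agrn and Sparc were added. This gave 62 of 32285 genes, namely 44 collagens, 11 laminins and 7 others. One of the 7, Col4a3bp, entered through its symbol alone. It encodes a ceramide transfer protein and is no collagen.

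The measurements were single-cell RNA sequencing of cells from the right brain, with 11 libraries of 1 mouse each. The sham + WT group (replicates 1, 2 and 3) and the MCAO/R + WT group (replicates 1 and 2) held wild-type C57BL/6 mice. The sham + Lrg1-/- group (replicates 1, 2 and 5) and the MCAO/R + Lrg1-/- group (replicates 1, 2 and 5) held mice with a conventional knockout, in which the gene is lost from every cell throughout life. MCAO/R is occlusion of the middle cerebral artery by a filament followed by reperfusion, and sham mice had the operation without the filament entering the internal carotid artery. The methods give male sex for the wild-type mice only, and wild-type and knockout animals came from different suppliers, so genotype and origin of the mice cannot be told apart. The methods also give a younger age, in weeks, for the wild-type than for the knockout mice, and a backcross to C57BL/6N for the knockouts alone, so age and substrain cannot be told apart from genotype either. Neither the age nor the length of reperfusion is in the sample labels.

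Values below are UMIs, distinct captured transcripts, summed over the cells of one type in one library and scaled to CPM, the usual count per unit of library total, with totals adjusted by TMM. Libraries held 5650 to 36858 barcodes and 37159497 to 171813031 UMIs. Lrg1 itself gave 178, 651 and 254 UMIs in the sham + WT libraries and 17348 and 15768 in the MCAO/R + WT libraries, against 0 in every knockout library but MCAO/R + Lrg1-/- replicate 5, which had 1. Differences are on the log2 scale with standard errors, from 1 edgeR fit per cell type over the groups that had libraries. A gene was called changed at an adjusted p below 0.05 together with an absolute log2 difference above 0.36. Every adjusted p is from edgeR's quasi-likelihood test with Benjamini-Hochberg adjustment over all genes of the cell type. The test sets a difference against the spread between mice, estimated over all groups of the fit. A group that enters with 1 library adds nothing to that estimate. The wild-type MCAO/R group has only 2 mice. In sums of this kind, fewer cells that express a gene and less RNA per cell cannot be told apart.

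Basement membranes are thin sheets of matrix under epithelia and endothelia and around muscle, fat and glia. A laminin polymer, each molecule made of an α, a β and a γ chain, lies next to the cells, and a network of collagen IV, a triple helix of α chains, is tied to it by nidogens and by the heparan sulfate proteoglycans perlecan (Hspg2) and agrin (Agrn). Around brain vessels such a sheet lies between endothelial cells, pericytes and the end-feet of astrocytes, and it is part of the blood-brain barrier. The chains α1 and α2 of collagen IV (Col4a1 and Col4a2) are found in nearly all basement membranes, and mutations in them cause small-vessel disease and brain haemorrhage, whereas the chains α3 to α6 have a restricted distribution.

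The genes of collagen IV lie as 3 head-to-head pairs on opposite strands, and their start sites are shown here because paired genes moved together in some cell types below and apart in others. In GENCODE M21 on GRCm38, the first exons of Col4a1, on the minus strand of chromosome 8 from 11312826, and of Col4a2, on the plus strand from 11312805, share 22 bases. Between the starts of Col4a6 (141474076, minus) and Col4a5 (141475385, plus) on chromosome X lie 1308 bases. Col4a4 (82586849, minus) and Col4a3 (82586921, plus) on chromosome 1 are separated by 71 bases, which are given 5′ to 3′ along the minus strand, towards Col4a4.
Col4a3 and Col4a4, chr1:82586850-82586920: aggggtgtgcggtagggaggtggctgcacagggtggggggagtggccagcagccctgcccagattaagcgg
The stretch is 69.0% G or C and contains on neither strand the CCAAT box (searched as CCAAT), the GC box (searched as GGGCGG) or the TATA box (searched as TATAAA). Col5a3 and Agrn, which moved in opposite directions after MCAO/R in endothelium, are shown with the 250 bases before their start (RefSeq promoters, GRCm38.p6, both on the minus strand, 5′ to 3′), where capitals mark the CCAAT box and the GC box on either strand, overlapping matches included.
Col5a3, chr9:20815068-20815317: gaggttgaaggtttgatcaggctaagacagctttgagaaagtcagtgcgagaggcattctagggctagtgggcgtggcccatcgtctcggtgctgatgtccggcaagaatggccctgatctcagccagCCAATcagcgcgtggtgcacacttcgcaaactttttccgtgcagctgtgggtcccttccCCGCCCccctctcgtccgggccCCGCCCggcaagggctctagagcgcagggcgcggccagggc
Agrn, chr4:156197489-156197738: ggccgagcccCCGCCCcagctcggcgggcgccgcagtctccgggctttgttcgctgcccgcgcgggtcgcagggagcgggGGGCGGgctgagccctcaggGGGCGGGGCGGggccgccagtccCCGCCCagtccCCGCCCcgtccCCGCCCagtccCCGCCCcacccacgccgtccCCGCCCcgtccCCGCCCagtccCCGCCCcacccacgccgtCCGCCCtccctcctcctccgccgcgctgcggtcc
The Col5a3 window holds 1 CCAAT box and 2 GC boxes, and this Agrn window 12 GC boxes. A second Agrn start, at 156186259, has 2 in its window. Of 32851 RefSeq mouse promoters, 33.8% hold the CCAAT box, 32.7% the GC box and 12.4% the TATA box in their 250 bases before the start. A match of letters is a description of the window.

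Each member was assigned the cell type with its highest mean over libraries, without a test (plain CPM, libraries of at least 20 cells). The groups behind these means differ between types, since oligodendrocyte precursor cells were read in 3 libraries, all after MCAO/R, fibroblasts in 4 with 1 sham library among them, and monocytes and monocyte-derived macrophages in none of MCAO/R + WT. Fibroblasts were the highest type for 22 members and pericytes for 15. Oligodendrocyte precursor cells followed with 6, and vascular smooth muscle, choroid plexus epithelial and ciliated ependymal cells with 4 each. Among the fibroblast genes were the fibrillar collagens Col1a1, at 510 CPM, and Col1a2, at 839 CPM, and Lama1 (the laminin α1 chain), at 508 CPM. Pericytes led for Lama2, the laminin α2 chain. It was 737 CPM there, 470 CPM in astrocytes and 4.24 CPM in endothelial cells. Endothelial cells were the highest type for Fn1 (fibronectin, 765 CPM), Agrn and Col4a3bp. Within the MCAO/R + Lrg1-/- group, however, Fn1 was higher in monocytes and monocyte-derived macrophages in replicates 2 and 5 (1333 and 1549 CPM, against 847 and 707 CPM in endothelium). Col4a1 reached 883 CPM in pericytes, 555 CPM in endothelial cells, 530 CPM in smooth muscle and 522 CPM in fibroblasts, against 67.4 CPM in astrocytes and 10.4 CPM in microglia. Lama5 and Col18a1 were highest in smooth muscle, at 179 and 217 CPM. Microglia led for Col27a1 (128 CPM), a small fibrillar collagen, and carried 1278 CPM of Sparc, a secreted collagen-binding protein that was 2352 CPM in pericytes. Col9a3, a chain of the fibril-associated collagen IX, and Col8a1, a short-chain collagen, were highest in choroid plexus epithelium, at 461 and 164 CPM. Of the 62 members, 60 passed the filter on low counts in at least 1 of the 16 cell types tested, and 51 of these 60 (85.0%) were called in some cell type and comparison, against 79.7% of all genes tested in some type. Col24a1 and Col6a4 were tested nowhere, although none of the 62 was without a UMI. Col19a1, Lamb3, Col11a1, Col26a1, Col1a2, Col28a1, Col6a5, Col10a1 and Col22a1 were tested and never called.

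**Figure D1:**
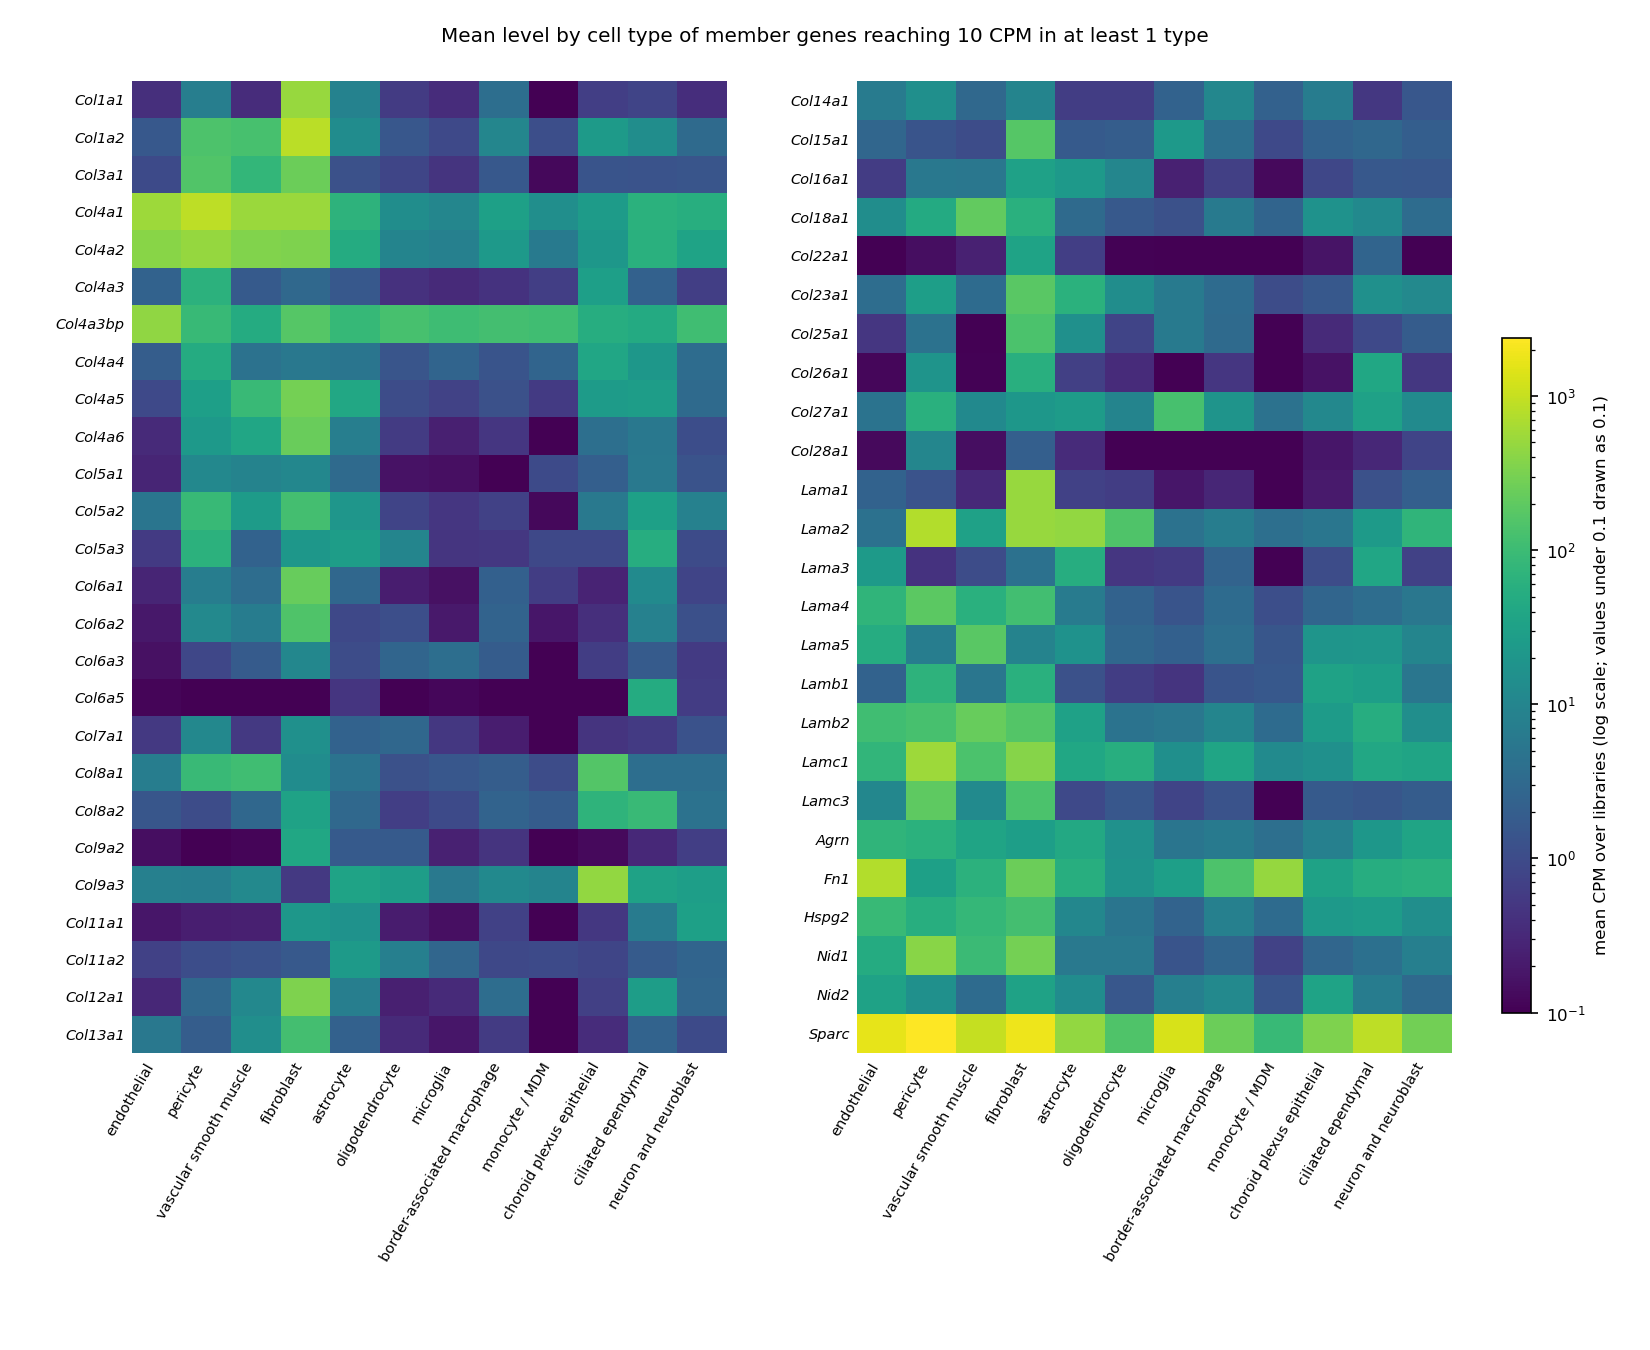
Mean CPM over libraries of the member genes that reach 10 CPM in at least 1 of the 12 cell types drawn (rows) in those types (columns), on a log colour scale with values under 0.1 drawn as 0.1. The mural cells and fibroblasts hold most of the high values, and Col27a1 stands out in microglia and Col9a3 in choroid plexus epithelium.

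In endothelial cells, both chains of the common collagen IV and nidogen 1 rose after MCAO/R in both genotypes, and agrin and Col14a1 fell. Of 45 members tested, 6 rose in WT mice (8.82% of all genes did) and 11 fell (10.2%). In Lrg1-/- mice 7 rose (11.9% of all genes) and 5 fell (9.47%). Their median difference was -0.08 in WT and 0.13 in Lrg1-/- mice, against 0.01 over all genes in both. Endothelial cells numbered 414 to 2733 per sham library and 368 to 3342 per MCAO/R library.

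Col4a1 was 347, 393 and 366 CPM in the sham + WT libraries, 346, 412 and 353 CPM in the sham + Lrg1-/- libraries, 948 and 621 CPM in the MCAO/R + WT libraries, and 724, 970 and 646 CPM in the MCAO/R + Lrg1-/- libraries. Every MCAO/R library was above every sham library. The rise was 1.09 ± 0.19 in WT (adjusted p = 0.0015) and 1.07 ± 0.17 in Lrg1-/- mice (adjusted p = 0.0012), and the rises differed by -0.02 (adjusted p = 0.99). Col4a2 behaved likewise, with 248, 286 and 266 CPM (sham + WT), 181, 242 and 232 CPM (sham + Lrg1-/-), 837 and 612 CPM (MCAO/R + WT) and 484, 664 and 436 CPM (MCAO/R + Lrg1-/-). Its rise was 1.44 ± 0.19 in WT (adjusted p = 2.0e-04) and 1.28 ± 0.17 in Lrg1-/- mice (adjusted p = 4.9e-04). Both genes kept these calls in each fit that left out 1 library.

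Nid1, whose product nidogen 1 links laminin to collagen IV, was 35.1, 33.9 and 39.3 CPM after sham in WT and 18.1, 25.5 and 27.4 CPM in Lrg1-/- mice, and after MCAO/R 85.0 and 56.0 CPM in WT and 72.8, 87.7 and 61.3 CPM in Lrg1-/- mice. Sham and MCAO/R libraries did not overlap in either genotype. It rose by 0.97 ± 0.19 in WT (adjusted p = 0.0041) and by 1.67 ± 0.19 in Lrg1-/- mice (adjusted p = 2.2e-04). Without MCAO/R + WT replicate 1 the WT rise was 0.63 (adjusted p = 0.093). Lamc1, the γ1 chain of most laminins, was called in Lrg1-/- mice alone, at 0.60 ± 0.13 (adjusted p = 0.0061), from 62.9, 61.4 and 57.0 CPM to 90.4, 101 and 83.4 CPM. In WT mice it was 66.2, 71.0 and 72.5 CPM after sham and 104 and 71.8 CPM after MCAO/R, a difference of 0.33 (adjusted p = 0.11), and these effects were not shown to differ. Fibrillar Col5a3 was scarce, at 0.133 to 0.424 CPM after sham and 0.653 to 1.11 CPM after MCAO/R, and rose by 1.79 and 1.84 (adjusted p = 0.012 and 0.024). In Lrg1-/- mice Col5a3 was called in 8 of 11 fits that left out 1 library. Col12a1 was also called higher in both genotypes, on 83 UMIs in all, and DESeq2 called it in neither.

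Agrn fell, from 79.7, 91.3 and 91.6 CPM to 28.0 and 35.6 CPM in WT mice and from 101, 113 and 104 CPM to 67.6, 51.2 and 44.6 CPM in Lrg1-/- mice. No MCAO/R library reached the lowest sham library. The fall was -1.46 ± 0.16 (adjusted p = 6.5e-05) and -0.96 ± 0.14 (adjusted p = 8.0e-04), and the groups after MCAO/R also stood apart, by 0.77 (adjusted p = 0.0041). Col14a1, a fibril-associated collagen, had the widest change among the members called in both genotypes. It was 12.8, 10.9 and 11.2 CPM (sham + WT) and 12.3, 13.2 and 9.53 CPM (sham + Lrg1-/-), and 0.405 and 0.386 CPM (MCAO/R + WT) and 0.816, 0.947 and 0.717 CPM (MCAO/R + Lrg1-/-). The differences were -4.85 ± 0.24 (adjusted p = 2.6e-07) and -3.73 ± 0.22 (adjusted p = 4.5e-06). Col6a6 was called lower in both genotypes too. In all, 8 members were called in the same direction in both genotypes, which is 47.1% of those called in WT and 66.7% of those called in Lrg1-/- mice, and none was called in opposite directions. Over all endothelial genes 1541 were called in the same direction in both, 48.8% of the WT and 43.5% of the Lrg1-/- calls. Of the calls in WT mice, 8 of 17 held in every fit that left out 1 library, and of those in Lrg1-/- mice 7 of 12. Without MCAO/R + WT replicate 1, 10 members were called in WT mice. The differences of Col5a3, Col6a6 and Col4a3 were then 1.70 (adjusted p = 0.091), -2.60 (adjusted p = 0.064) and -1.85 (adjusted p = 0.064). Col6a6 in Lrg1-/- mice was -0.64 without sham + Lrg1-/- replicate 1 (adjusted p = 0.36).

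**Figure D2:**
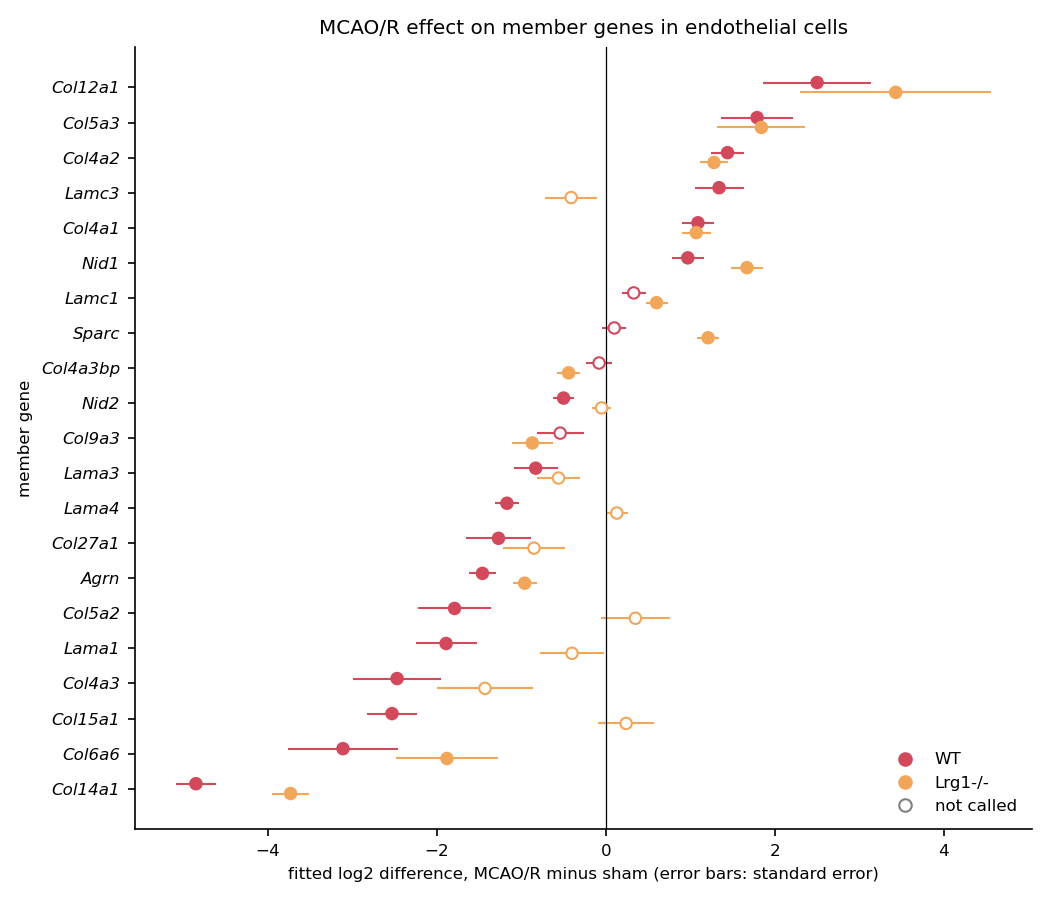
Fitted log2 difference between MCAO/R and sham (x axis, bars are standard errors) in WT (red) and Lrg1-/- mice (orange) for the endothelial members called in either genotype (y axis). Filled points were called and open points were not. Col4a1, Col4a2 and Nid1 lie to the right in both genotypes and Agrn and Col14a1 to the left, while the effects on Lama4, Sparc and Col15a1 were called different between genotypes.

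For 3 endothelial members the effect of MCAO/R itself differed between genotypes. All 3 differences were positive (6.67% of the 45 members, against 1.36% of all genes called in that direction). Lama4, the laminin α4 chain of endothelium, was 86.8, 111 and 94.6 CPM after sham and 45.6 and 40.7 CPM after MCAO/R in WT mice, with no overlap. In Lrg1-/- mice it was 73.6, 65.4 and 69.1 CPM after sham and 68.6, 89.5 and 68.5 CPM after MCAO/R, and these ranges overlapped. It fell by 1.17 ± 0.14 on the log2 scale in WT (adjusted p = 1.2e-04), the difference in Lrg1-/- mice was 0.13 (adjusted p = 0.49), and the effects differed by 1.31 ± 0.19 (adjusted p = 0.0054). Col15a1, a basement membrane collagen related to collagen XVIII, was 7.16, 7.27 and 5.59 CPM in the sham + WT libraries and 0.596 to 1.97 CPM in the 8 others. Its difference of effects was 2.77 ± 0.44 (adjusted p = 0.008), and it differed between sham groups by -2.25 ± 0.29 (adjusted p = 4.9e-04). Most of its sham + WT UMIs (119 of 149, 111 of 164 and 137 of 164) came from cluster c2.6, which held 115 cells or 1.60% of sham + WT endothelium and 0.339%, 0.700% and 0.684% in sham + Lrg1-/-, MCAO/R + WT and MCAO/R + Lrg1-/- mice. Its leading genes were Plvap, Esm1, Cd300lg and Gpihbp1. In the endothelial cells outside c2.6 Col15a1 was 1.47, 2.41 and 0.945 CPM in sham + WT and 0.493 to 1.79 CPM in the other libraries, and neither its difference of effects (0.97 ± 0.69, adjusted p = 0.52) nor its difference between sham groups (-0.58, adjusted p = 0.44) was called. Sparc was 1597, 1609 and 1643 CPM after sham and 1957 and 1516 CPM after MCAO/R in WT mice, which overlap. In Lrg1-/- mice it was 898, 1017 and 1046 CPM after sham, below every other library, and 2258, 2578 and 2026 CPM after MCAO/R, above every other library. It rose by 1.21 ± 0.13 there (adjusted p = 1.5e-04), against 0.10 ± 0.14 in WT (adjusted p = 0.66), and the effects differed by 1.11 ± 0.19 (adjusted p = 0.012). Without MCAO/R + WT replicate 2 this difference was 0.94 (adjusted p = 0.052). Outside c2.6 the differences of effects were still called for Lama4 (1.31) and Sparc (1.1).

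**Figure D3:**
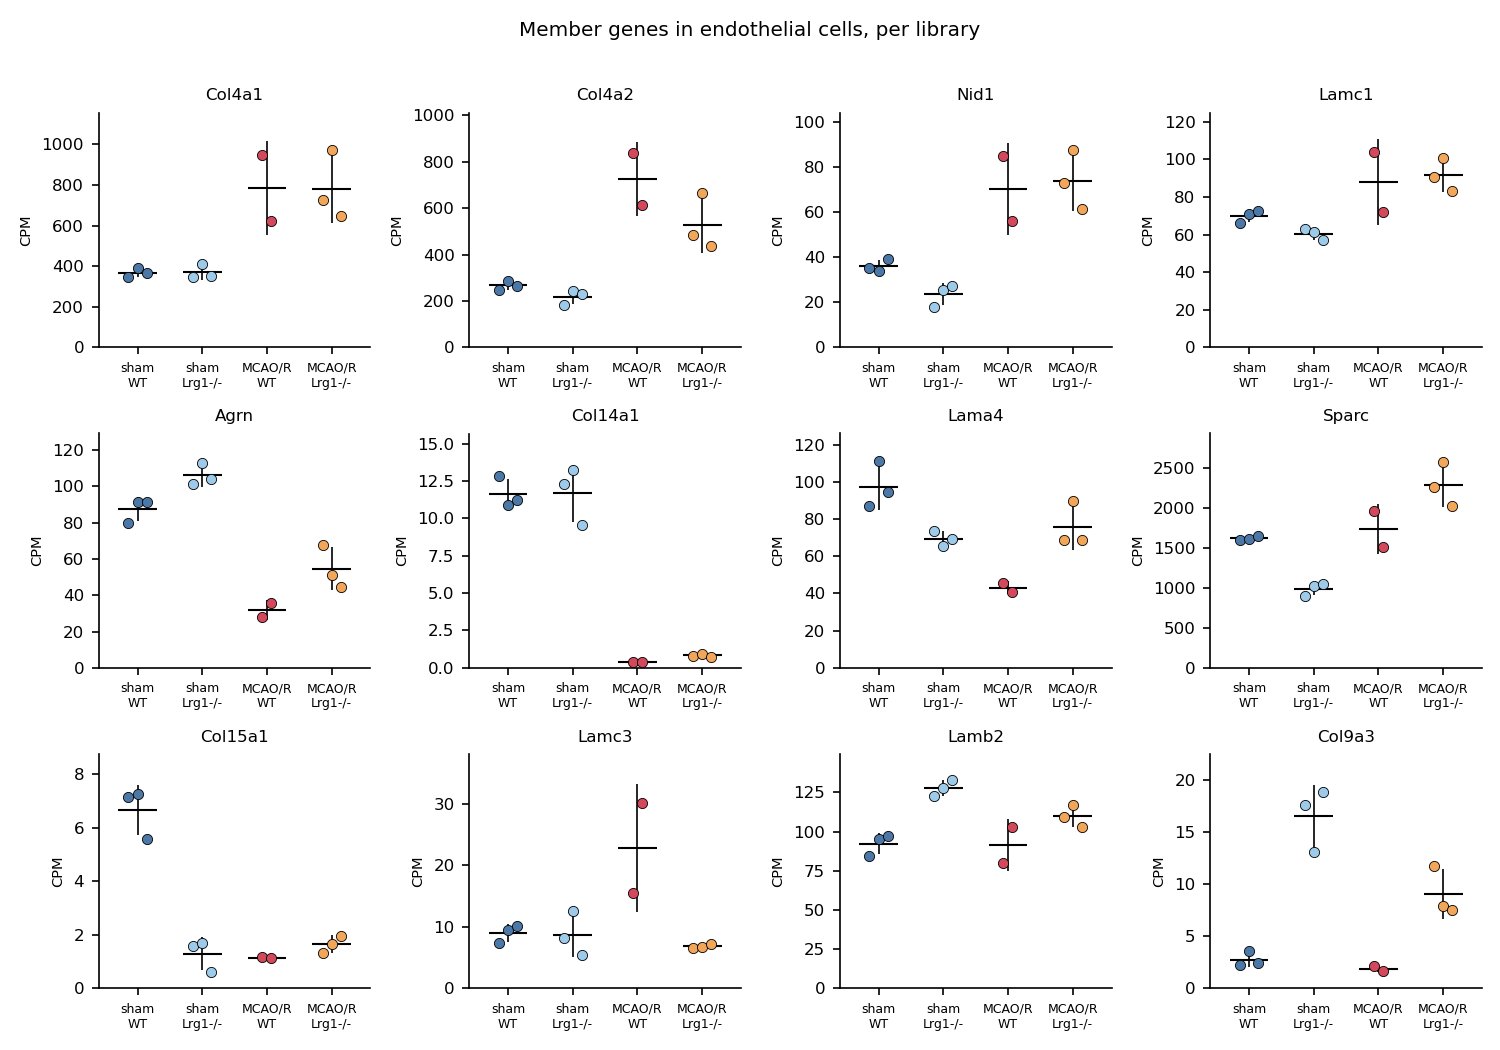
CPM (y axis, from 0) of 12 member genes in endothelial cells of each library, by group (x axis). Points are libraries, horizontal lines group means and vertical lines 1 SD. Col4a1, Col4a2 and Nid1 are higher and Agrn and Col14a1 lower in all MCAO/R libraries of either genotype than in its sham libraries, and Sparc spans 898 to 2578 CPM in the Lrg1-/- libraries.

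Other basement membrane genes of endothelium moved less evenly. Lamc3, the laminin γ3 chain, was 7.40, 9.49 and 10.1 CPM after sham and 15.5 and 30.2 CPM after MCAO/R in WT mice, and 5.36 to 12.5 CPM in all Lrg1-/- libraries. It rose by 1.34 ± 0.29 in WT mice (adjusted p = 0.0064) and was lower in Lrg1-/- than in WT mice after MCAO/R, by 1.74 ± 0.31 (adjusted p = 0.0016). The rise in WT mice was 0.78 without MCAO/R + WT replicate 2 (adjusted p = 0.11). Nid2 fell in WT mice by 0.50 (adjusted p = 0.0089), from 43.0, 38.8 and 40.4 CPM to 30 and 27.5 CPM, and without the same library the difference was -0.44 (adjusted p = 0.075). The low-level Lama1, Lama3, Col4a3, Col5a2 and Col27a1 were also called lower in WT mice. The difference was -2.47 ± 0.52 for Col4a3 (adjusted p = 0.0056) and -0.11 ± 0.32 for Col4a4, its head-to-head partner (adjusted p = 0.85). Fn1 was 606 to 758 CPM after sham and 707 to 988 CPM after MCAO/R and was not called (adjusted p = 0.057 in WT and 0.16 in Lrg1-/- mice), nor were Lama5, at 43.4 to 62.2 CPM, Hspg2, Lamb1, Lamb2, Lama2 and Col18a1 in either genotype after MCAO/R.

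Between genotypes after sham, 4 endothelial members were higher (6.89% of all genes were) and 8 lower (9.44%) in Lrg1-/- mice. After MCAO/R 11 were higher (14.1% of all genes) and 3 lower (13.6%). Lamb2, the laminin β2 chain of vessels, was 84.6, 95.1 and 97.1 CPM in sham + WT and 123, 128 and 133 CPM in sham + Lrg1-/- libraries, a difference of 0.47 ± 0.11 (adjusted p = 0.0097). It overlapped after MCAO/R, at 79.9 and 103 CPM and 109, 117 and 103 CPM. The transmembrane collagen Col13a1 was 11.1, 13.1 and 12.8 CPM in sham + WT and 1.38, 2.51 and 1.99 CPM in sham + Lrg1-/- libraries, and 6.61 and 7.59 CPM against 2.78, 1.87 and 0.717 CPM after MCAO/R. The groups did not overlap at either point, with differences of -2.64 ± 0.29 (adjusted p = 2.2e-04) and -1.95 (adjusted p = 7.9e-04). These values rest on few cells, since cluster c2.6 held 225 of 231, 261 of 295 and 366 of 375 of the endothelial Col13a1 UMIs in sham + WT and 11 of 13, 22 of 28 and 10 of 10 in sham + Lrg1-/- libraries, where it had 8 cells in all. Within c2.6 it was 684, 526 and 595 CPM in sham + WT, 624 CPM in MCAO/R + WT replicate 1 and 502 CPM in MCAO/R + Lrg1-/- replicate 2, the libraries with at least 20 such cells. Outside c2.6 it was 2.01 CPM or less in every library, and the genotype differences of -1.21 after sham and -2.01 after MCAO/R were not called (adjusted p = 0.36 and 0.056), nor was that of Nid1 after sham (-0.51, adjusted p = 0.099). Fewer cells of c2.6 and less Col13a1 per endothelial cell are therefore not told apart by the endothelial sums. Col9a3 went the other way, at 1.63 to 3.59 CPM in WT and 7.53 to 18.9 CPM in Lrg1-/- libraries (differences of 2.58 and 2.24, adjusted p = 8.9e-05 and 2.4e-04), as did Col8a2 (3.46 and 3.09). After MCAO/R Lama4, Agrn, Lamb1, Col8a1, Col14a1, Col16a1, Col18a1, Hspg2 and Col5a2 were also higher in Lrg1-/- mice. Hspg2 was called in only 3 of the 11 fits that left out 1 library, as was Col5a2. All fits that left out 1 library kept 6 of the 12 calls after sham and 8 of the 14 after MCAO/R, and without sham + WT replicate 2 there were 6 calls after sham.

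The libraries of the genotypes also differed in RNA from other cells, which bears on these comparisons. In endothelial cells the summed markers of choroid plexus epithelium, in which Col9a3 and Col8a1 have their highest levels, were 419 to 803 CPM in sham + WT and 168 to 280 CPM in MCAO/R + WT libraries, but 7049 to 8136 CPM in sham + Lrg1-/- and 3509 to 7595 CPM in MCAO/R + Lrg1-/- libraries. Erythroid markers were 994 to 1457 and 646 to 1576 CPM in WT against 25085 to 37355 and 21961 to 25035 CPM in Lrg1-/- libraries. Fibroblast markers were 84.5 to 176, 202 to 275, 240 to 651 and 615 to 1304 CPM in sham + WT, MCAO/R + WT, sham + Lrg1-/- and MCAO/R + Lrg1-/- libraries, whereas pericyte markers lay between 65.6 and 113 CPM in all of them. Fibroblast markers were thus also higher after MCAO/R than after sham in WT endothelium, while these ranges overlapped in Lrg1-/- endothelium. Col12a1, called higher after MCAO/R in both genotypes, was 0.302 CPM in endothelium and 335 CPM in fibroblasts over all libraries read. Col5a3, likewise called higher in both, was 0.550 CPM in endothelium. It was 65.6 CPM in pericytes, 53.7 CPM in ciliated ependymal cells, 27.8 CPM in astrocytes and 9.68 CPM in oligodendrocytes. The part of these transcripts in the genotype differences and in the MCAO/R differences was not tested.

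Endothelial cells fell into 7 clusters made without the member genes, and MCAO/R and sham cells occupied different ones. Cluster c2.0 held 62.4% of the MCAO/R + WT and 47.5% of the MCAO/R + Lrg1-/- endothelial cells, against 1.15% and 5.33% of the sham cells of those genotypes. Cluster c2.1 held 54.7% of sham + WT and 25.3% of sham + Lrg1-/- but 0.160% and 0.0912% of MCAO/R cells. The genotypes differed in clusters after sham too, c2.3 holding 8.28% of sham + WT and 28.4% of sham + Lrg1-/- cells. The comparisons were therefore repeated within clusters. In c2.0, c2.2, c2.3 and c2.5 Col4a1 rose in both genotypes, by 0.80 to 1.20, and Col4a2 by 0.96 to 1.57. In c2.4, with the arterial genes Vegfc, Sema3g and Bmx among its leading genes, Col4a1 rose by 1.05 in WT mice, and the difference in Lrg1-/- mice was 0.34 (adjusted p = 0.31). Sparc rose in Lrg1-/- mice in each of c2.0, c2.2, c2.3, c2.4 and c2.5, and the difference of effects was called in c2.0 (1.31, adjusted p = 0.022) and c2.2 (1.34, adjusted p = 8.9e-05). For Lama4 it was called in c2.2 (1.40, adjusted p = 0.0017) and was 1.16 in c2.0 (adjusted p = 0.088). In c2.6 MCAO/R could be compared in WT mice alone, on 1 MCAO/R library. There Col4a1 was 1361, 1167 and 1135 CPM after sham and 1294 CPM after MCAO/R (0.09 ± 0.19, adjusted p = 0.88). Col4a2 (0.15), Nid1 (-0.83) and Lama4 (-1.01) were not called either (adjusted p = 0.78, 0.21 and 0.12). Sparc was 2237, 1947 and 1713 CPM after sham and 1003 CPM after MCAO/R (-0.97 ± 0.20, adjusted p = 0.013). Col15a1 was 362, 224 and 223 CPM and 29.5 CPM (-3.15 ± 0.49, adjusted p = 0.0016), and Col4a3 63.8, 74.6 and 47.1 CPM and 4.22 CPM (-3.75 ± 0.86, adjusted p = 0.023), whereas its partner Col4a4 differed by 0.44 ± 0.84 (adjusted p = 0.87). These tests assume that the lone MCAO/R library varies like the sham libraries, and they have no replicate check of MCAO/R.

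Pericytes, which share the capillary basement membrane with endothelium, had more members called between genotypes than after MCAO/R. They were fewer in Lrg1-/- libraries, with 18 to 38 cells after sham and 21 to 130 after MCAO/R against 245 to 612 in WT libraries, and sham + Lrg1-/- replicate 5, with 18 cells, was left out. These numbers depend on which clusters were named. Clusters c5.2, c5.3 and c5.4 scored highest for pericyte markers but held smooth muscle markers too and were not named. Together they held 567 and 352 cells of sham + WT and MCAO/R + WT, beside 776 and 980 named pericytes, and 348 and 619 cells of sham + Lrg1-/- and MCAO/R + Lrg1-/-, beside 86 and 194. Of 36 members tested, 4 were called after MCAO/R in WT mice (11.1%, against 4.58% of all genes) and 2 in Lrg1-/- mice (5.56%, against 2.37%). Between genotypes 11 were called after sham (30.6%, against 7.54% of all genes) and 10 after MCAO/R (27.8%, against 13.8%).

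Lama2 was 828, 973 and 928 CPM in the sham + WT libraries and 431 and 453 CPM in the sham + Lrg1-/- libraries, and after MCAO/R 926 and 1221 CPM against 528, 467 and 675 CPM. WT and Lrg1-/- libraries did not overlap at either point. It was lower in Lrg1-/- mice by 1.04 ± 0.22 after sham (adjusted p = 0.0044) and by 0.97 ± 0.20 after MCAO/R (adjusted p = 0.0029). Lamc1, whose chain can join the α2 chain in laminins, was 607, 627 and 709 CPM against 272 and 371 CPM after sham and 669 and 782 CPM against 477, 432 and 487 CPM after MCAO/R, again without overlap. Its differences were -1.01 (adjusted p = 0.0042) and -0.66 (adjusted p = 0.024). Without sham + Lrg1-/- replicate 1 the differences after sham were -1.08 for Lama2 (adjusted p = 0.052) and -0.88 for Lamc1 (adjusted p = 0.098), since 1 library then stood for that group. Nid1 was 457, 452 and 457 CPM (sham + WT), 352 and 353 CPM (sham + Lrg1-/-), 560 and 524 CPM (MCAO/R + WT) and 281, 255 and 353 CPM (MCAO/R + Lrg1-/-), and was lower in Lrg1-/- mice after MCAO/R (-0.91, adjusted p = 0.0028).

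The head-to-head pair Col4a3 and Col4a4, whose shared 71 bases are printed above, went the same way in pericytes. Col4a3 was 98.5, 73.8 and 82.3 CPM against 22.7 and 5.88 CPM after sham, and 89.7 and 133 CPM against 34.1, 31.0 and 94.2 CPM after MCAO/R. Only the last comparison overlapped, through MCAO/R + Lrg1-/- replicate 5. Its differences were -2.54 (adjusted p = 0.01) and -1.37 (adjusted p = 0.011). Col4a4 was 62.7, 64.5 and 64.3 CPM against 22.7 and 23.5 CPM after sham, and 75.5 and 102 CPM against 17.0, 24.1 and 47.1 CPM after MCAO/R, with no overlap. It was lower by 1.46 (adjusted p = 0.043) and by 1.71 (adjusted p = 9.5e-04). Without MCAO/R + Lrg1-/- replicate 2 the differences after MCAO/R were -0.80 for Col4a3 (adjusted p = 0.32) and -1.46 for Col4a4 (adjusted p = 0.064), and Col4a3 was -1.91 after sham without sham + Lrg1-/- replicate 2 (adjusted p = 0.16). Col4a4 after sham was called in 5 of 10 such fits. Col4a6 and the transmembrane collagen Col23a1 were lower after MCAO/R as well. Nid2 gave 37, 33 and 22 UMIs in the 261, 270 and 245 pericytes of the sham + WT libraries. It gave 0 in the 38 and 30 pericytes of the sham + Lrg1-/- libraries. The part of the small cell numbers in these zeros was not tested.

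Some collagens were higher in pericytes of Lrg1-/- mice, among the fibrillar ones Col3a1 at both points and Col5a1 after sham. Col3a1, a collagen of vessel walls and fibroblasts, was 60.2, 115 and 143 CPM in sham + WT and 494 and 347 CPM in sham + Lrg1-/- libraries, and 30.7 and 17.9 CPM against 119, 165 and 70.7 CPM after MCAO/R. The genotypes did not overlap, and the differences were 1.99 and 2.48. It fell after MCAO/R in both genotypes, by 2.14 and 1.65 on the log2 scale. Col18a1 was 14.7, 15.8 and 17.9 CPM against 90.8 and 70.6 CPM and, after MCAO/R, 30.7 and 12.2 CPM against 93.7, 91.3 and 55.0 CPM. Its differences of 2.32 and 2.0 were called, and without sham + Lrg1-/- replicate 1 and MCAO/R + Lrg1-/- replicate 2 were 2.05 (adjusted p = 0.11) and 1.79 (adjusted p = 0.058). Sparc, Fn1, Col8a1 and Col5a1 were higher after sham and Col9a3 after MCAO/R. After MCAO/R in WT mice Col4a2 rose from 357, 394 and 386 CPM to 774 and 550 CPM (0.80, adjusted p = 0.017). With totals thinned to that of the smallest library its difference was -0.40 (adjusted p = 0.93), and that of Col23a1, called at 1.24, was -0.01. In the same mice Col4a1 went from 692, 738 and 643 CPM to 1350 and 917 CPM without a call (0.71, adjusted p = 0.062). Lama4, Lama5, Lamb1, Lamb2, Lamc3, Hspg2, Agrn and Col15a1 were called in no comparison of pericytes where they were tested. In all fits that left out 1 library, 2 of the 4 calls after MCAO/R in WT mice held and none of the 2 in Lrg1-/- mice. Of the calls between genotypes, 1 of 11 after sham and 3 of 10 after MCAO/R held.

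The comparisons were repeated on named pericytes together with c5.2, c5.3 and c5.4, which gave 71 to 788 cells in every library. Of 47 members tested, 13 and 11 were called after MCAO/R in WT and Lrg1-/- mice (9.32% and 8.83% of all genes), and 23 and 18 between genotypes after sham and MCAO/R (14.9% and 18.9%). Of the earlier calls between genotypes, 7 of 11 and 9 of 10 were among them. Lama2 was then 421, 521 and 394 CPM against 120, 146 and 117 CPM after sham and 498 and 638 CPM against 198, 178 and 154 CPM after MCAO/R (-1.80 and -1.70, adjusted p = 4.0e-05 and 1.0e-04). Lamc1 (-0.94 and -0.70), Col4a3 (-1.83 and -1.82) and Col4a4 (-1.44 and -1.97) were again lower in Lrg1-/- mice at both points. Col3a1 after sham was not called (0.30, adjusted p = 0.41), nor were Col5a1 and Col8a1, nor Col4a6 after MCAO/R. Sparc changed direction after sham, from 0.89 to -0.23 (adjusted p = 0.39). Neither of the 2 calls after MCAO/R in Lrg1-/- mice remained, Col3a1 being -0.75 (adjusted p = 0.07). Col4a1 and Col4a2 rose after MCAO/R in both genotypes in these cells, by 0.85 and 1.03 in WT and by 1.02 and 0.78 in Lrg1-/- mice. The part of the mix of smooth muscle cells and pericytes in these values was not tested.

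Beside these values, the pericytes' own markers summed to 24904 to 26407 CPM in sham + WT and 16430 to 21194 CPM in MCAO/R + WT libraries, and to 14751 to 15753 and 12550 to 18069 CPM in the Lrg1-/- libraries. Smooth muscle markers were 2066 to 2452 CPM in sham + WT and 4792 to 6064 CPM in sham + Lrg1-/- pericytes, and 1352 to 1552 and 1502 to 1733 CPM after MCAO/R. Choroid plexus markers were 437 to 971 CPM in sham + WT, 173 to 317 CPM in MCAO/R + WT, 7130 to 9739 CPM in sham + Lrg1-/- and 5389 to 9263 CPM in MCAO/R + Lrg1-/- pericytes. Pericytes also fell into different clusters by genotype. Cluster c5.1 held 87.2% of sham + WT and 88.4% of MCAO/R + WT pericytes but 46.5% and 63.4% of those in the Lrg1-/- groups. Cluster c5.5, with Il11, Ccl19 and Ccl11 among its leading genes, held the other 12.8%, 11.6%, 53.5% and 36.6%. The part of a different mix of mural cells or of pericyte clusters in the genotype differences was not tested.

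**Figure D4:**
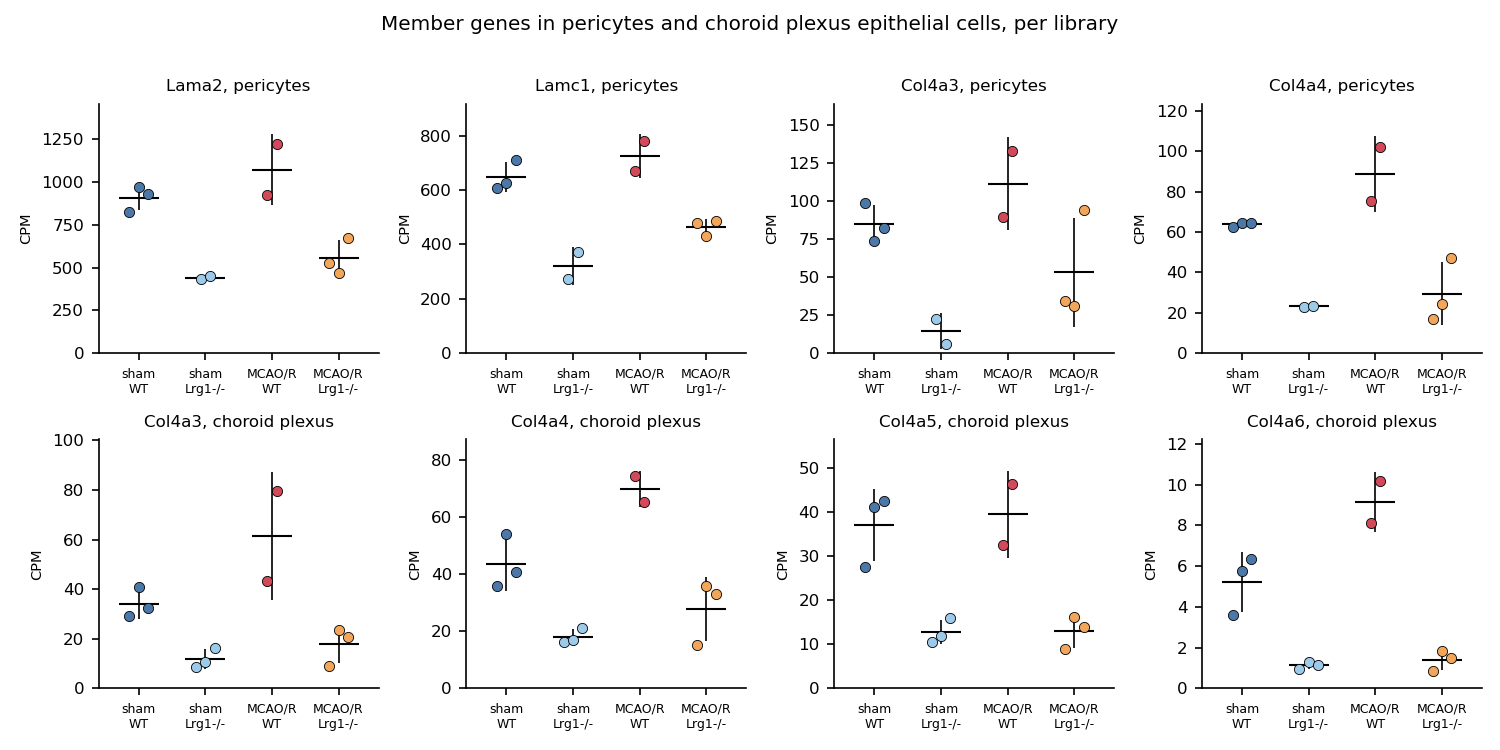
CPM (y axis, from 0) of laminin and collagen IV genes in pericytes (top row) and choroid plexus epithelial cells (bottom row) of each library, by group (x axis). Points are libraries, horizontal lines group means and vertical lines 1 SD. WT libraries lie above Lrg1-/- libraries in every panel but that of Col4a3 in pericytes after MCAO/R, where 1 Lrg1-/- library reaches 94.2 CPM.

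In vascular smooth muscle cells, whose basement membrane surrounds each cell, 6 of 37 members were called after MCAO/R in WT mice (16.2%, against 12% of all genes) and 10 in Lrg1-/- mice (27.0%, against 11.5%). Col4a1 was 467, 426 and 481 CPM in sham + WT, 358, 377 and 404 CPM in sham + Lrg1-/-, 736 and 624 CPM in MCAO/R + WT and 530, 713 and 742 CPM in MCAO/R + Lrg1-/- libraries. It was above sham in every MCAO/R library and rose by 0.57 (adjusted p = 0.018) and 0.82 (adjusted p = 0.0011). In WT mice the rise was 0.43 without MCAO/R + WT replicate 1 (adjusted p = 0.22) and 0.53 without sham + WT replicate 2 (adjusted p = 0.081). Col4a6 moved the opposite way, from 66.6, 54.8 and 73.2 CPM to 15.6 and 38.8 CPM in WT (-1.24) and from 42.2, 41.7 and 31.4 CPM to 33.5, 16.0 and 16.7 CPM in Lrg1-/- mice (-1.08), which overlapped in the latter. The calls of Col4a6 were lost without MCAO/R + WT replicate 1 in WT (-0.76, adjusted p = 0.13) and in 5 of 11 fits that left out 1 library in Lrg1-/- mice. Lamb2 was 204, 187 and 221 CPM in sham + WT and 267, 344 and 420 CPM in sham + Lrg1-/- libraries (0.73, adjusted p = 0.0051) and fell after MCAO/R in Lrg1-/- mice, to 216, 189 and 171 CPM (-0.84).

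Sparc, Col18a1, Col3a1, Col4a2, Col8a1 and Col6a1 also rose in smooth muscle of Lrg1-/- mice, and Col8a1 in WT mice too. Agrn was 29.9, 32.6 and 37.0 CPM in sham + WT and 21.3 and 21.6 CPM in MCAO/R + WT libraries (-0.64, called in 4 of 11 fits without 1 library), and was higher in Lrg1-/- libraries after sham (0.57) and MCAO/R (0.76). Between genotypes 8 members were called after sham (21.6%, against 15.4% of all genes) and 5 after MCAO/R (13.5%, against 17.5%). Col9a3 (3.89 and 4.12) and Col8a2 (2.97 and 3.69) were higher in Lrg1-/- mice at both points, as in endothelium, and the choroid plexus markers in these cells were 112 to 1493 CPM in WT and 4291 to 35163 CPM in Lrg1-/- libraries. Lama5, Lamc1, Nid1, Hspg2 and Fn1 were not called in smooth muscle. No call after MCAO/R in WT mice held in all fits that left out 1 library, and of those in Lrg1-/- mice 2 of 10 did, Col4a1 and Lamb2. Between genotypes 3 of 8 calls after sham and 1 of 5 after MCAO/R held.

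Fibroblasts, the type with the highest levels of Col1a1, Col1a2 and Col3a1, were too few for a full comparison, with 1 to 45 cells per library. At least 20 cells were present in sham + WT replicate 3, both MCAO/R + WT libraries and MCAO/R + Lrg1-/- replicate 2 only. Col1a1 was 582, 644, 373 and 521 CPM in these libraries, and Col1a2 864, 983, 857 and 774 CPM. Neither was called, and neither were Col3a1, Col5a2, Col6a1 and Col6a2. Col15a1 was 475 CPM in the sham library and 62.1 and 99.6 CPM in the MCAO/R + WT libraries, and was called lower after MCAO/R (-2.57 ± 0.39, adjusted p = 0.021) as 1 of 38 members (2.63%, against 0.544% of all genes), on 1 sham library that is assumed to vary like the others. With libraries of at least 8 cells none was called, and Col15a1 was then 1163, 258 and 465 CPM in sham + WT and 43.5 and 362 CPM in sham + Lrg1-/- libraries. The sham + WT libraries thus still lay above all MCAO/R libraries (12.1 to 100 CPM), whereas the sham + Lrg1-/- library at 43.5 CPM lay within their range.

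In microglia, the macrophages of the brain tissue, Sparc and Col27a1 fell after MCAO/R and fibronectin rose. Of 51 members 9 were called in WT mice (17.6%, against 21.7% of all genes) and 10 in Lrg1-/- mice (19.6%, against 36.2%), which is no more than the share of all genes. Sparc was 2193, 2067 and 2007 CPM in sham + WT, 1276, 1217 and 1465 CPM in sham + Lrg1-/-, 829 and 663 CPM in MCAO/R + WT and 802, 691 and 889 CPM in MCAO/R + Lrg1-/- libraries. The sham groups did not overlap with each other or with the MCAO/R groups, which overlapped. It fell by 1.49 ± 0.16 in WT (adjusted p = 3.4e-05) and by 0.73 in Lrg1-/- mice (adjusted p = 0.001), and differed between the sham groups by -0.66 (adjusted p = 0.004). The direction of Sparc after MCAO/R in Lrg1-/- mice was thus lower in microglia and higher in endothelium. Sham and MCAO/R microglia also lay in different clusters, c0.0 holding 11.3% of sham + WT and 11.6% of sham + Lrg1-/- cells against 50% and 61.0% after MCAO/R. Cluster c0.3 held 35.9% of sham + WT and 0.914% of MCAO/R + WT cells, and c0.2 83.9% of sham + Lrg1-/- and 38.3% of MCAO/R + Lrg1-/- cells. The part of these clusters in the differences between sham and MCAO/R, and between genotypes, was not tested.

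Col27a1 was 152, 188 and 160 CPM and 194, 187 and 188 CPM after sham in WT and Lrg1-/- mice, and 42.6 and 70.9 CPM and 61.5, 64.0 and 78.5 CPM after MCAO/R. It fell by 1.56 (adjusted p = 1.2e-04) and 1.47 (adjusted p = 8.2e-05) on the log2 scale, with the genotypes overlapping after MCAO/R. Col6a3, a chain of the microfibrillar collagen VI, was 3.87 to 4.80 CPM and 5.35 to 8.60 CPM after sham, and 0.501 and 0.268 CPM and 2.48, 2.04 and 1.56 CPM after MCAO/R (-3.48, adjusted p = 2.1e-05, and -1.84, adjusted p = 4.4e-04). Fn1 was 8.48 to 12.7 CPM in the sham libraries of both genotypes, 48.8 and 19.6 CPM in MCAO/R + WT and 26.5, 94.7 and 79.7 CPM in MCAO/R + Lrg1-/- libraries. It rose by 1.85 ± 0.41 (adjusted p = 0.0057) and 2.55 ± 0.43 (adjusted p = 5.2e-04), and by 1.05 in WT mice without MCAO/R + WT replicate 1 (adjusted p = 0.12). Markers of monocytes in these cells were 5.62 to 7.50 CPM in sham + WT, 7.26 to 11.2 CPM in sham + Lrg1-/-, 7.53 to 33.3 CPM in MCAO/R + WT and 25.7 to 72.8 CPM in MCAO/R + Lrg1-/- libraries, and their part in the Fn1 values was not tested. Agrn fell in both genotypes (-0.71 and -0.95). In WT mice Nid2 and the transmembrane Col25a1 also fell, and Col4a3bp and Col4a1 rose, the last in 4 of 11 fits without 1 library. In Lrg1-/- mice Col15a1, Col20a1 and Col4a5 fell, and Lamc1 rose.

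Genotype differences in microglia were called for 8 members after sham (15.7%, against 22.9% of all genes) and 12 after MCAO/R (23.5%, against 20.8%). Col11a2 was lower in Lrg1-/- microglia, at 5.45, 4.52 and 5.31 CPM against 2.11, 2.27 and 1.12 CPM after sham and at 3.81 and 5.07 CPM against 0.382, 0.430 and 1.36 CPM after MCAO/R (-1.39 and -2.42). Col9a3 and Col8a1 were higher at both points, and Col8a2 after MCAO/R, beside choroid plexus markers of 139 to 572 CPM in WT and 2853 to 6453 CPM in Lrg1-/- microglia. Col6a3, Col25a1, Nid2 and Lamc1 were higher in Lrg1-/- mice after MCAO/R, and Col15a1 and Col20a1 lower. With totals thinned to that of the smallest library the directions of Nid2 (-0.14), Col15a1 (0.66) and Col20a1 (6.04) turned, with none called. Clusters of microglia differed between genotypes too, after sham, c0.1 holding 44.4% of sham + WT and 4.46% of sham + Lrg1-/- cells and c0.2 holding 8.41% and 83.9%, and after MCAO/R, with 46.9% and 0.681% in c0.1 and 2.18% and 38.3% in c0.2. The effect of MCAO/R differed between genotypes for 4 members (7.84%, against 8.41% of all genes), Col25a1, Sparc, Col6a3 and Col4a3bp. Leaving out each library in turn kept 6 of the 9 calls after MCAO/R in WT and 7 of the 10 in Lrg1-/- mice in every fit, and 4 of 8 and 4 of 12 of the genotype calls.

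**Figure D5:**
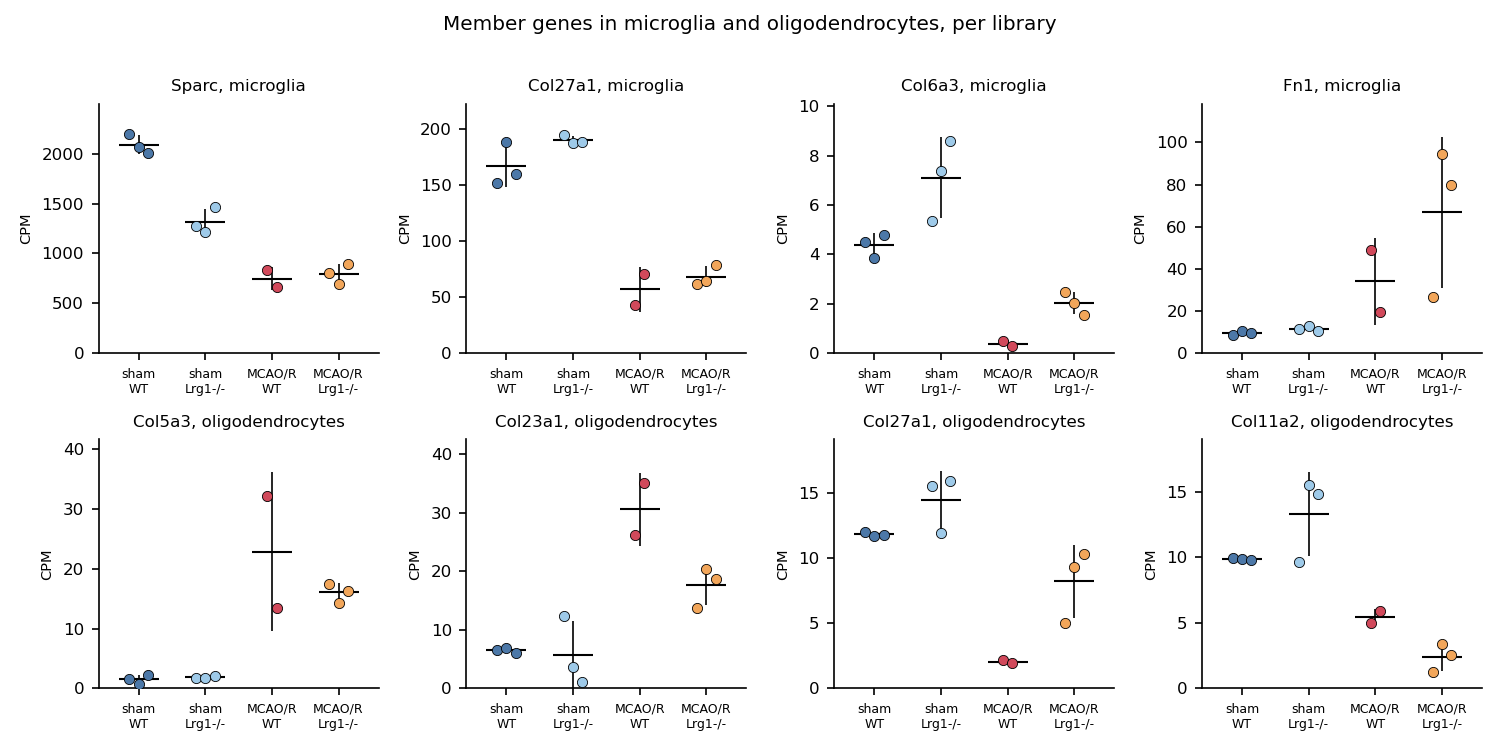
CPM (y axis, from 0) of member genes in microglia (top row) and oligodendrocytes (bottom row) of each library, by group (x axis). Points are libraries, horizontal lines group means and vertical lines 1 SD. Sparc, Col27a1 and Col6a3 are lower and Fn1 higher in MCAO/R than in sham microglia, and Col5a3 in oligodendrocytes is 0.717 to 2.29 CPM after sham and 13.4 to 32.2 CPM after MCAO/R.

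Oligodendrocytes, the myelin-forming cells, had low levels of most members, yet 15 of 46 were called after MCAO/R in WT mice (32.6%, against 23.6% of all genes) and 6 in Lrg1-/- mice (13%, against 15%). Col5a3 was 1.52, 0.717 and 2.29 CPM and 1.76, 1.79 and 2.12 CPM after sham, and 32.2 and 13.4 CPM and 17.5, 14.3 and 16.3 CPM after MCAO/R. All MCAO/R libraries were above all sham libraries, and the rise was 3.95 ± 0.39 in WT (adjusted p = 7.1e-06) and 3.11 ± 0.54 in Lrg1-/- mice (adjusted p = 0.002). Both calls held in each fit that left out 1 library. Col23a1 went from 6.58, 6.89 and 6.05 CPM to 26.2 and 35.0 CPM in WT mice (2.23) and from 12.3, 3.58 and 1.06 CPM to 13.8, 20.3 and 18.6 CPM in Lrg1-/- mice (1.29, called in 4 of 11 fits without 1 library). Col11a2 fell in both genotypes, by 0.85 and 2.27 on the log2 scale, and Col9a1 by 1.47 and 2.27.

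Col27a1 was 12, 11.7 and 11.8 CPM in sham + WT and 2.16 and 1.95 CPM in MCAO/R + WT oligodendrocytes, and 15.5, 11.9 and 15.9 CPM and 5.01, 9.31 and 10.3 CPM in the Lrg1-/- groups. Neither genotype overlapped between sham and MCAO/R. It fell in WT mice (-2.53, adjusted p = 1.0e-05), and after MCAO/R it was higher in Lrg1-/- mice by 2.09. Its effects of MCAO/R differed by 1.80 (adjusted p = 0.018), as 1 of 46 members (2.17%, against 2.27% of all genes), in 6 of 11 fits that left out 1 library. Fn1 rose in both genotypes (0.76 and 1.23), and Lamc1, Lamc3, Lama1 and Col7a1 rose and Nid1, Agrn, Col2a1 and Col6a2 fell in WT mice. With totals thinned to that of the smallest library the WT effects of Col27a1, Agrn and Fn1 turned, to 2.03, 1.13 and -6.53, and the difference of effects of Col27a1 was -2.14, none of them called. Lama2, at 90.8 to 206 CPM, fell in Lrg1-/- mice (-0.66). Between genotypes 3 members were called after sham (6.52%, against 8.69% of all genes) and 12 after MCAO/R (26.1%, against 27.6%). Agrn was 12.8, 11.1 and 12.7 CPM against 23.7, 28.6 and 20.1 CPM after sham and 8.03 and 7.85 CPM against 20, 22.6 and 14.3 CPM after MCAO/R, without overlap (1.0 and 1.24). Sparc was 115, 108 and 115 CPM against 165, 163 and 167 CPM after sham and 95.6 and 89.9 CPM against 153, 240 and 266 CPM after MCAO/R (0.55 and 1.26). Microglial markers in these cells were 162 to 439 CPM in WT and 493 to 1139 CPM in Lrg1-/- libraries, and microglia carry much Sparc, but the part of such transcripts in these values was not tested. Oligodendrocyte clusters differed as well. Cluster c3.0 held 32.6% of sham + WT, 17.8% of sham + Lrg1-/-, 80.3% of MCAO/R + WT and 19.5% of MCAO/R + Lrg1-/- cells, c3.1 held 7.08%, 56.6%, 1.47% and 64.3%, and c3.2 held 37.0% and 10.9% of the sham cells and none after MCAO/R. Their part in the comparisons was not tested. Every fit that left out 1 library kept 3 of the 15 calls after MCAO/R in WT mice, 3 of the 6 in Lrg1-/- mice, none of the 3 between genotypes after sham and 5 of the 12 after MCAO/R.

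Choroid plexus epithelium rests on a basement membrane of its own and expresses the restricted chains of collagen IV. None of its 34 tested members was called after MCAO/R in either genotype (edgeR called 2.24% of all genes in WT and 2.35% in Lrg1-/- mice). Between genotypes 9 members were lower in Lrg1-/- mice after sham (26.5%, against 13.1% of all genes) and 10 after MCAO/R (29.4%, against 14.2%), and none was higher. Col4a5 was 27.6, 41.1 and 42.4 CPM against 10.6, 11.8 and 15.9 CPM after sham and 32.4 and 46.4 CPM against 8.82, 16.1 and 13.8 CPM after MCAO/R. Its head-to-head partner Col4a6 was 3.58, 5.77 and 6.36 CPM against 0.943, 1.29 and 1.13 CPM and 8.11 and 10.2 CPM against 0.850, 1.82 and 1.51 CPM. The genotypes did not overlap for either gene. The differences were -1.58 and -1.56 for Col4a5 (adjusted p = 0.0014 and 0.0028) and -2.25 and -2.65 for Col4a6 (adjusted p = 0.0028 and 0.0021).

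The other pair followed in these cells. Col4a3 was 29.1, 40.8 and 32.4 CPM against 8.64, 10.5 and 16.2 CPM after sham and 43.2 and 79.8 CPM against 9.04, 23.4 and 20.6 CPM after MCAO/R (-1.62 and -1.74, adjusted p = 0.0054 and 0.0051). Col4a4 was 35.8, 54.0 and 40.8 CPM against 16.3, 17.0 and 21.0 CPM and 74.3 and 65.3 CPM against 15, 35.7 and 32.9 CPM (-1.30 and -1.34, adjusted p = 0.0054 and 0.0065). Again the genotypes did not overlap. Col8a1, Nid2, Lamb1 and Col4a3bp were lower at both points, Lama3 after sham, and Col14a1 and Col5a2 after MCAO/R, whereas Col9a3, at 346 to 551 CPM, Sparc, Col4a1, Col18a1 and Col8a2 were not called. MCAO/R + WT replicate 2 held 28 such cells. Without it the difference after MCAO/R was -1.27 for Col4a3 (adjusted p = 0.092) and -0.80 for Col8a1 (adjusted p = 0.13), and without MCAO/R + WT replicate 1 it was -1.20 for Col4a4 (adjusted p = 0.084). All fits that left out 1 library kept 7 of the 9 calls after sham and 3 of the 10 after MCAO/R, those of Col4a5, Col4a6 and Col4a3bp. With cells of over 10% mitochondrial UMIs left out, Col8a1 after sham was the only one of these 19 genotype differences still called. After MCAO/R the direction turned for Col14a1 (from -1.31 to 1.58), Lamb1 (from -0.91 to 0.23) and Col4a6 (from -2.65 to 0.01), none of them called, and Col4a5 was -0.94 (adjusted p = 0.35). Erythroid transcripts in these cells were 13.6 to 29.6 CPM in WT and 11822 to 62196 CPM in Lrg1-/- libraries, and their part was not tested. Cluster c4.3, with a median of 25478 UMIs per cell, held 27.4% of sham + WT and 25.7% of MCAO/R + WT choroid plexus cells but 3.68% and 4.97% of those in the Lrg1-/- groups. Cluster c4.1, with a median of 4433, held 4.57% and 2.94% against 32.6% and 18.9%. The part of these clusters in the genotype differences was not tested either.

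The remaining types had few calls. In astrocytes, whose end-feet face the vascular basement membrane, 2 of 30 members were called after MCAO/R in WT mice (6.67%, against 1.75% of all genes). Lama3 fell from 149, 92.4 and 92.1 CPM to 15.7 and 36.1 CPM (-2.07, adjusted p = 0.039) and Col5a3 rose from 6.88, 4.05 and 10.3 CPM to 62.0 and 15.8 CPM (2.43, adjusted p = 0.036), each in 5 of 11 fits that left out 1 library. Astrocyte clusters differed between these groups, c8.2 holding 24% of sham + WT and 6.01% of MCAO/R + WT cells, c8.0 25.9% and 37.3% and c8.3 9.56% and 18.8%, and their part was not tested. Lama2 was not called there. Fibronectin rose in blood-derived and border macrophages of Lrg1-/- mice after MCAO/R. In border-associated macrophages Fn1 was 57.7, 42.2 and 93.7 CPM after sham and 139, 321 and 722 CPM after MCAO/R (2.71), beside monocyte markers of 56.5 to 829 and 266 to 2447 CPM. In monocytes and monocyte-derived macrophages it was 141 and 138 CPM and 535, 1333 and 1549 CPM (3.03 ± 0.58, adjusted p = 0.0056), the call being lost without sham + Lrg1-/- replicate 1 (3.04, adjusted p = 0.078) or replicate 5 (3.0, adjusted p = 0.066). Different clusters held most of this type in the groups compared. Cluster c6.5, with Pparg, Ear2 and Treml4 among its leading genes, held 87.7% of the sham + Lrg1-/- and 9.62% of the MCAO/R + Lrg1-/- cells, and c6.0, with Arg1, Ccr2 and Chil3, held 12.3% and 90.4%. The part of this change of cells in the Fn1 rise was not tested. For MCAO/R in Lrg1-/- mice only 3 members were tested in monocytes, where 17.7% of all genes were called. In border-associated macrophages 1 of 24 was called (12.1% of all genes). Members called there after MCAO/R in WT mice or between genotypes were each lost in some fit that left out 1 library. Oligodendrocyte precursor cells were compared between genotypes after MCAO/R alone. Fn1 was 17.7 CPM in the 1 WT library and 76.9 and 917 CPM in the Lrg1-/- libraries (4.75), on 10, 15 and 103 UMIs. The WT group thus had no replicate, and the 917 CPM came from the 23 cells of MCAO/R + Lrg1-/- replicate 5.

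In ciliated ependymal cells Col6a1 gave 0, 0 and 1 UMIs in the sham + WT and 0 in each sham + Lrg1-/- library, and 55 and 30 and 5, 345 and 187 UMIs after MCAO/R. It was called higher after MCAO/R in both genotypes as the one member of 39 (0.557% of all genes in WT and 3.28% in Lrg1-/- mice), in 6 of 11 fits that left out 1 library in WT and 9 of 11 in Lrg1-/- mice. Members called between genotypes in these cells were each lost in some fit that left out 1 library. Cluster c1.3 held 38.2% of sham + WT, 48.6% of sham + Lrg1-/-, 9.13% of MCAO/R + WT and 70.6% of MCAO/R + Lrg1-/- ependymal cells and c12.0 28.9%, 27.6%, 42.5% and 15.9%, and the part of these clusters was not tested. Lama2 in neurons and neuroblasts was 143, 184 and 149 CPM in sham + WT and 57.8, 25.4 and 5.92 CPM in sham + Lrg1-/-, and 96.0 and 83.7 CPM against 17.1, 5.10 and 28.2 CPM after MCAO/R. The genotypes did not overlap, with differences of -2.0 and -2.33, called in 7 and 9 of 11 fits that left out 1 library. Of 27 members 4 were called there after sham (14.8%, against 4.51% of all genes) and 1 after MCAO/R (3.70%, against 4.23%), beside choroid plexus markers of 160 to 684 CPM in WT and 6483 to 21561 CPM in Lrg1-/- libraries. Neuron clusters differed too, c9.0 holding 34.7% of sham + WT and 56.1% of sham + Lrg1-/- cells. After MCAO/R c9.1 held 20.3% of WT and 44.4% of Lrg1-/- cells. The part of these neuron clusters was not tested. Over all libraries read Lama2 was 73.1 CPM in neurons and neuroblasts and 5.17 CPM in choroid plexus epithelium. It was 737 CPM in pericytes, 501 CPM in fibroblasts, 470 CPM in astrocytes and 150 CPM in oligodendrocytes. The part of transcripts from those types in the neuron values was not tested either.

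Genes that make, surround or bind the matrix were read in endothelium from 3 lists, beside 8.82% of all genes that rose and 10.2% that fell in WT mice and 11.9% and 9.47% in Lrg1-/- mice. Of 28 genes for folding, crosslinking and processing of collagen, 8 rose and 4 fell after MCAO/R in WT mice and 10 rose and 2 fell in Lrg1-/- mice. The prolyl 4-hydroxylase subunit P4hb rose by 0.77 and 0.76, and Colgalt2, which glycosylates collagen, fell by 1.49 and 0.93 on the log2 scale. Fkbp10, a chaperone of procollagen, rose by 2.01 in Lrg1-/- mice. Of 34 further matrix genes, 5 rose and 10 fell in WT mice and 8 rose and 5 fell in Lrg1-/- mice. Ltbp4, which binds latent TGF-β, fell by 2.10 and 2.28, Ntn4, a netrin of basement membranes, by 2.02 and 1.71, and Fbln2 by 2.03 and 2.0. Of 26 matrix receptors, 3 rose and 2 fell in WT and 7 rose and 3 fell in Lrg1-/- mice. Itga3, a subunit of a laminin-binding integrin, rose by 1.73 and 0.91, and Bcam, which binds laminin α5, fell by 0.62 in WT mice. After MCAO/R, Lrg1-/- mice had 6 higher and 1 lower collagen-processing genes than WT mice, 14 and 1 further matrix genes and 9 and 4 receptors, with Serpinh1 (0.89), Efemp2 (1.29), Mmrn2 (0.99) and Bcam (0.70) among the higher. Of all genes 14.1% were higher and 13.6% lower. After sham these counts were 3 and 1, 3 and 0, and 3 and 1, beside 6.89% and 9.44% of all genes. The list of further matrix genes was chosen with Dcn, Lum and Mgp, which are also fibroblast markers, and Vtn, a pericyte marker. Summed fibroblast markers in endothelium, given above, were higher in Lrg1-/- than in WT libraries at both points. Their part in these counts was not tested. The median difference after MCAO/R in WT and Lrg1-/- mice was 0.16 and 0.17 for collagen processing, -0.20 and 0.23 for the further matrix genes and 0.00 and 0.33 for the receptors, against 0.01 over all genes.

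Outside endothelium, over pairs of a member and a cell type, 40 of 369 were called after MCAO/R in WT mice (10.8%, against 8.18% of all such gene pairs) and 31 of 336 in Lrg1-/- mice (9.23%, against 10.3%). Between genotypes 48 of 332 were called after sham (14.5%, against 10.5%) and 54 of 382 after MCAO/R (14.1%, against 13.8%). The effect of MCAO/R differed between genotypes for 5 of 324 (1.54%, against 1.68%). The member shares were thus close to those of all genes in each of these comparisons, and the largest gap was that after sham.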

How the data were processed

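The authors deposited one 10x Genomics matrix of raw UMI counts per library, made from 3′ single-cell libraries of the right brain. Per the labels' processing notes the reads were aligned to mm10 with Cell Ranger and STAR. The methods give Cell Ranger 5.0.0, and the matrix headers 7.0.1. Barcode counts of 4 libraries, 3 of sham + Lrg1-/- and 1 of MCAO/R + Lrg1-/-, are round numbers (15500, 9000, 5650 and 8500). Red blood cells were lysed during dissociation.

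Cells were kept with more than 500 genes, more than 1000 UMIs and under 25% mitochondrial UMIs. Doublets were scored against simulated ones with an automatic threshold, and in 6 libraries where that threshold marked almost no cell, 5 of them Lrg1-/-, the 6% of highest score were removed, which left 125535 cells in all. They were clustered by Leiden at resolution 0.3 on 15 principal components of 2000 variable genes, without the member genes, and named from at least 3 marker genes. Clusters that could not be named held 32989 cells, of which 17276 were in MCAO/R + Lrg1-/- replicate 5. UMIs were summed per library and cell type with at least 20 cells. Genes were filtered with filterByExpr and tested with edgeR 4.0.16 (quasi-likelihood, TMM) in R 4.3.3, in 1 fit of the groups per cell type, with contrasts for MCAO/R in each genotype, for genotype at each point, and for the difference of the MCAO/R effects. A gene was called where p, adjusted by Benjamini and Hochberg, was under 0.05 and the fold change exceeded 0.25 on the natural log scale (0.36 on the log2 scale) in either direction. The tests were checked on simulated counts for MCAO/R in WT mice. Of genes given a true log2 difference of 1, 30 of 96 were recovered in endothelial cells and 24 of 99 in pericytes. At a difference of 2 these were 95 of 100 and 87 of 98, with 2 and 4 false calls. The simulation gave every gene the same spread between libraries. It also changed few genes, 96 and 100 of 16599 in endothelial cells, whereas a larger part was called in the data. The shares recovered are therefore not those to be had in the data. A gene that was not called may still have changed. Alternatives were DESeq2 1.42.0, its size factors, no filter, other limits on cells and mitochondrial UMIs, only the 2 groups compared, a replicate block, thinned totals and leaving out each library. The limit of 8 cells, the tests within endothelial clusters, the fit outside cluster c2.6 and the fit on pericytes with unnamed clusters were added after seeing the data.

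Named genes were a basement membrane set in each type (with fibrillar collagens in fibroblasts), the called members of smallest p and those of highest level. The members and lists were chosen with earlier results of these data known, and the rules for naming clusters were set after the clusters were seen. Depth was 37159497 to 171813031 UMIs per library, with a median of 3066 to 11222 per kept cell. Libraries shared 0.233 to 1.24% of the barcodes of the smaller one. Mice are the replicates, 3, 3, 2 and 3 in the 4 groups. One member's values are not reported here.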

Additional observations from a re-analysis of the deposited data

Results flagged for a closer look

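For 8 combinations of a member and a cell type the effect of MCAO/R differed between genotypes, by the interaction term of edgeR's fit with adjustment over all genes. The values below are the effect in Lrg1-/- mice minus that in WT mice on the log2 scale. In endothelium they were 1.31 for Lama4, 2.77 for Col15a1 and 1.11 for Sparc. With each library left out in turn, Lama4 ranged from 1.16 to 1.41 and Col15a1 from 2.54 to 3.0, both called in all 11 fits. Col15a1 rests on the 115 sham + WT cells of cluster c2.6, which gave 119 of 149, 111 of 164 and 137 of 164 of its endothelial UMIs. In endothelial cells outside that cluster its value was 0.97 (adjusted p = 0.52) and was not called, while Lama4 (1.31) and Sparc (1.1) were. Endothelial Sparc ranged from 0.94 to 1.32 and was not called without MCAO/R + WT replicate 2. The sham groups also differed for these 3 genes, with Lama4 called there in 8 of 11 fits that left out 1 library.

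In microglia the values were 2.32 for Col25a1, -0.88 for Col4a3bp, 0.75 for Sparc and 1.63 for Col6a3. Col25a1, a transmembrane collagen, was 11.3, 9.40 and 11.6 CPM in sham + WT, 1.91 and 1.0 CPM in MCAO/R + WT, 7.18, 6.44 and 7.47 CPM in sham + Lrg1-/- and 4.20, 6.77 and 3.03 CPM in MCAO/R + Lrg1-/- libraries. It and Col4a3bp were called in all 11 fits that left out 1 library, Sparc in 3 and Col6a3 in 4. In oligodendrocytes the value for Col27a1 was 1.80, called in 6 of 11 such fits. With totals thinned to that of the smallest library the values of Col25a1 in microglia and Col27a1 in oligodendrocytes turned to -0.60 and -2.14, and neither was called. The MCAO/R + WT group on which each of these rests has 2 libraries.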

How the results depend on the processing

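Counts of called members are given in the order MCAO/R in WT, MCAO/R in Lrg1-/-, genotype after sham, genotype after MCAO/R and difference of MCAO/R effects. In endothelium they were 17, 12, 12, 14 and 3, and outside it 40, 31, 48, 54 and 5. With totals thinned to those of the smallest library, endothelial counts were 8 and 7 after MCAO/R and 8 between genotypes after MCAO/R, and the others outside endothelium were 6, 5, 1, 3 and 0. Without a filter on low counts they were 77, 79, 89, 86 and 23 outside endothelium and 5 for the endothelial difference of effects. DESeq2 gave 5 and 8 differences of effects in and outside endothelium. With only the 2 groups compared, genotype after MCAO/R had 8 and 27 calls. Leaving out each library in turn gave 10 to 19, 8 to 13, 6 to 14, 10 to 16 and 2 to 5 calls in endothelium and 19 to 47, 17 to 44, 24 to 56, 26 to 63 and 2 to 13 outside it. Endothelial cells outside cluster c2.6, an alternative chosen after seeing the data, gave 16, 12, 9, 13 and 2 calls, with 6 of 58 lost, 5 of them of Col13a1 and Col15a1. Deviations of same-numbered libraries correlated at -0.41 to 0.08 over genes in endothelium, and those of other pairs of libraries at -0.21 to 0.41. The 2 libraries of MCAO/R + WT deviate from their mean as mirror images, so these values cannot decide whether replicate numbers pair the mice. A fit with a replicate block gave 15, 9, 5, 12 and 2 endothelial calls and 19, 30, 22, 47 and 1 outside. Of 15 differences that changed sign, Sparc in pericytes between sham groups (-0.23) did so with the unnamed clusters nearest to pericytes added, a choice made after seeing the data, and 3 did so in choroid plexus epithelium between genotypes after MCAO/R with a mitochondrial limit of 10%, namely Col14a1 (1.58), Col4a6 (0.01) and Lamb1 (0.23). The other 11 did so with thinned totals. They were Col15a1 (0.66), Col20a1 (6.04) and Nid2 (-0.14) between genotypes after MCAO/R and the difference of effects of Col25a1 (-0.60) in microglia, the difference of effects of Col27a1 (-2.14) and the WT effects of Agrn (1.13), Col27a1 (2.03) and Fn1 (-6.53) in oligodendrocytes, the WT effects of Col23a1 (-0.01) and Col4a2 (-0.40) in pericytes, and Lama2 (0.02) between sham groups in smooth muscle. The cause was not tested. Thinning leaves few UMIs for genes of low level, and groups with pericytes or fibroblasts in few cells are limited in the same way. Not all of these genes were of low level, Col4a2 having a mean of 491 CPM in pericytes. Of the 236 calls, 211 were also made by DESeq2 and 231 with its size factors. With only the 2 groups compared 175 of 213 were made again, with a replicate block 151 of 234, and with thinned totals 43 of 191.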
